A study of Mus musculus with 1049 samples.

Results

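The genes of antigen presentation by major histocompatibility complex (MHC) class I were followed in single dermal fibroblasts of C57Bl/6 mice. The group holds 10 genes of 51777 in the count tables. Its members were given by name and were chosen with earlier results of these data known. They are the heavy chains H2-D1 and H2-K1, the light chain B2m, the peptide transporter genes Tap1 and Tap2, the loading factor Tapbp (tapasin), the immunoproteasome subunits Psmb8, Psmb9 and Psmb10, and the transcriptional activator Nlrc5. Cells came from newborn skin (1.5 or 2.5 days), young skin (2 months) and old skin (18 months), with no treatment or transgene given in the labels. They were sorted one per well and sequenced as full-length cDNA by Smart-seq2 in 2 experiments, on 5 and 4 plates that each held all 3 ages. After filters on depth, detected genes and mitochondrial reads, 249 newborn, 246 young and 240 old cells remained of 861 wells. The labels name experiments but no mice, so the replicates are 2 sums of reads per age, 1 per experiment, and p-values measure only the spread between those sums.

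The sorting protocol in the labels removed cells carrying CD45, CD117, EpCam or CD31 and used CD34 and Pdgfrα to select fibroblasts. A wider panel with Dlk1, CD26 and Sca1 antibodies is described for newborn subpopulations, without saying which newborn wells it applies to, so the sort and the newborn age cannot be told apart. Every cell kept had between 246349 and 4331293 reads. The fibroblast list (Col1a1, Col1a2, Col3a1, Dcn, Lum, Pdgfra, Pdgfrb, Cd34 and Vim) was read at every age, and the immune markers Ptprc, Cd3e, Adgre1, Tyrobp and Laptm5 were at 0 reads. In sums over cells, fewer cells with a transcript and less transcript per cell cannot be told apart, so levels are followed below by shares of cells.

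MHC class I is the display by which nearly all nucleated cells show fragments of their own proteins to CD8 T cells. Proteasomes cut the proteins, the Tap1-Tap2 transporter moves the peptides into the endoplasmic reticulum, and tapasin holds empty heavy chain and B2m dimers at the transporter until a peptide binds. Under interferon, Psmb8, Psmb9 and Psmb10 take the places of the constitutive catalytic subunits Psmb5, Psmb6 and Psmb7 in newly assembled proteasomes. Nlrc5 is a class I transactivator best known from lymphocytes and interferon-treated cells.

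Most of the group lies close together in the genome. On GRCm38, 7 members sit on chromosome 17 within 1351.6 kb: Tapbp (ENSMUSG00000024308, 33915899 to 33929292), H2-K1 (ENSMUSG00000061232, 33996017 to 34000347), Psmb9 (ENSMUSG00000096727, 34181987 to 34187764), Tap1 (ENSMUSG00000037321, 34187553 to 34197225), Psmb8 (ENSMUSG00000024338, 34197721 to 34201454), Tap2 (ENSMUSG00000024339, 34203527 to 34216321) and H2-D1 (ENSMUSG00000073411, 35262730 to 35267499). B2m (ENSMUSG00000060802) lies on chromosome 2 at 122147686 to 122153083. Nlrc5 (ENSMUSG00000074151, 94434356 to 94527272) and Psmb10 (ENSMUSG00000031897, 105935735 to 105938444) lie on chromosome 8. Tap1 and Psmb9 start toward each other and overlap by 212 bases on opposite strands, and Psmb8, Tap2, Psmb10, B2m and Tapbp each overlap another annotated gene. The strand setting of the counting is not given in the sources used here, so reads in those stretches are uncertain. Of the 50-base words in their transcripts, H2-D1 shared 12.8% and H2-K1 9.63% with other genes, mainly of the H2-Q family and each other, so reads of these 2 heavy chains could have been split or lost.

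The promoters of the 3 surface chains and of Psmb8 are shown. These 4 were picked by their levels in these data, described below, and a link between motifs and levels was not tested. Each run is 250 bases before to 50 after a RefSeq transcript start on GRCm38.p6, 5′ to 3′ along the gene. Capitals mark matches, on either strand, to an IRF motif (AANNGAAA), an interferon-stimulated response element (ISRE, GAAA and GAAA with any 2 bases between them, which holds the IRF motif), a gamma-activated site (GAS, TTCNNNGAA) and a kappa B motif. The windows are chr17:35262844-35263143 on the plus strand for H2-D1, chr17:34000298-34000597 on the minus strand for H2-K1, chr2:122147437-122147736 on the plus strand for B2m and chr17:34197945-34198244 on the plus strand for Psmb8. Those of H2-D1 and Psmb8 lie wholly inside the gene bounds given above, so the bases before those bounds were not scanned.
H2-D1: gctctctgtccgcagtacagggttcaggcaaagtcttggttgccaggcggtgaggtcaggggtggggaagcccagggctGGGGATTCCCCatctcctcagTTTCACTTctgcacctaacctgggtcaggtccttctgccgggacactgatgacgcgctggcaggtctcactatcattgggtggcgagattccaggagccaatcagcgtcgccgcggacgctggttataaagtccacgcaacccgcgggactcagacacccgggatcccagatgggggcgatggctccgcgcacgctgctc
H2-K1: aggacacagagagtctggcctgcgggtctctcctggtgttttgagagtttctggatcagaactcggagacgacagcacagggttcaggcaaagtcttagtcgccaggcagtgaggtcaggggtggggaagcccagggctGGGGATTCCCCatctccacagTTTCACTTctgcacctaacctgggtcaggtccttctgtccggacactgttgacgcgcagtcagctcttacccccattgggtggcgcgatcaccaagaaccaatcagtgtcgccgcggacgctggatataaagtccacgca
B2m: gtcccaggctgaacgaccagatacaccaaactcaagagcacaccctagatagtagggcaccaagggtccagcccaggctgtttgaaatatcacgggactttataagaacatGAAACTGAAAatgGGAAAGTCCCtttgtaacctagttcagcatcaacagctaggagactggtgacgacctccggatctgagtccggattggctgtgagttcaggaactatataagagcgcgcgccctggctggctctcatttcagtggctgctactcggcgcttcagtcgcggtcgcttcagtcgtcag
Psmb8: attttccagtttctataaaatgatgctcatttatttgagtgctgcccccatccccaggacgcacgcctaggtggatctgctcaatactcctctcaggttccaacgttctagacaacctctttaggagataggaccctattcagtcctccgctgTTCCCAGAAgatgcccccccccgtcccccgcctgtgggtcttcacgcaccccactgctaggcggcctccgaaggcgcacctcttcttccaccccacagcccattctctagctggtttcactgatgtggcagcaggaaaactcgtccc
Both heavy chain windows held a kappa B match followed by an IRF match on the opposite strand, 171 and 150 bases before the start in H2-D1 and 111 and 90 bases before it in H2-K1. Over 239 aligned bases the pair of windows was identical at 211 (88.3%). B2m held an ISRE 139 bases before its start and a kappa B match 126 bases before it, and Psmb8 held a GAS 97 bases before its start. Over all 32851 RefSeq promoters of this length, 23.9% held the IRF motif, 3.44% the ISRE, 8.30% the GAS and 8.46% the kappa B motif. Entries were found for 8 of the 10 members, all except Tap2 and Nlrc5. The windows of Tap1 and Psmb9, which share 275 bases, and those of Tapbp and Psmb10 held none of these letters. Those of Psmb9 and Tapbp also lie wholly inside the gene bounds given above, so the bases before those bounds were not scanned. Tapbp, Psmb9 and Psmb10 were higher in young than in newborn cells on 9 of 9 plates, as given below, and a link to the motifs was not tested. Of the constitutive subunits, Psmb6 held an IRF match 70 bases before its start and Psmb5 held no match.

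Between newborn and young skin the surface chains rose together, and they were highest in old skin. Levels are read counts scaled to library size by trimmed mean of M values (CPM), given for experiment 1 and then experiment 2. H2-D1 stood at 104 and 81.4 CPM (newborn), 2920.3 and 2388 CPM (young) and 3906 and 3955 CPM (old). H2-K1, the second classical heavy chain of this strain, stood at 58.3 and 116 CPM (newborn), 1386.5 and 1280 CPM (young) and 2097 and 2177 CPM (old). B2m, the light chain that all class I heavy chains need to reach the surface, stood at 622 and 440.4 CPM (newborn), 6377 and 4907 CPM (young) and 9384 and 10462.5 CPM (old). No newborn sum reached a young or old sum for any of these genes, and both old sums lay above both young sums. Per kilobase of exon, B2m held rank 56 and 75 of all genes in newborn sums, rank 3 in both young sums and rank 2 in both old sums, and H2-D1 held ranks 1315 and 1608, 60 and 67, and 39 and 42 at the same ages. The 10 members together took 0.101% and 0.0796% of gene reads (newborn), 1.06% and 0.836% (young) and 1.56% and 1.62% (old).

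**Figure D1:**
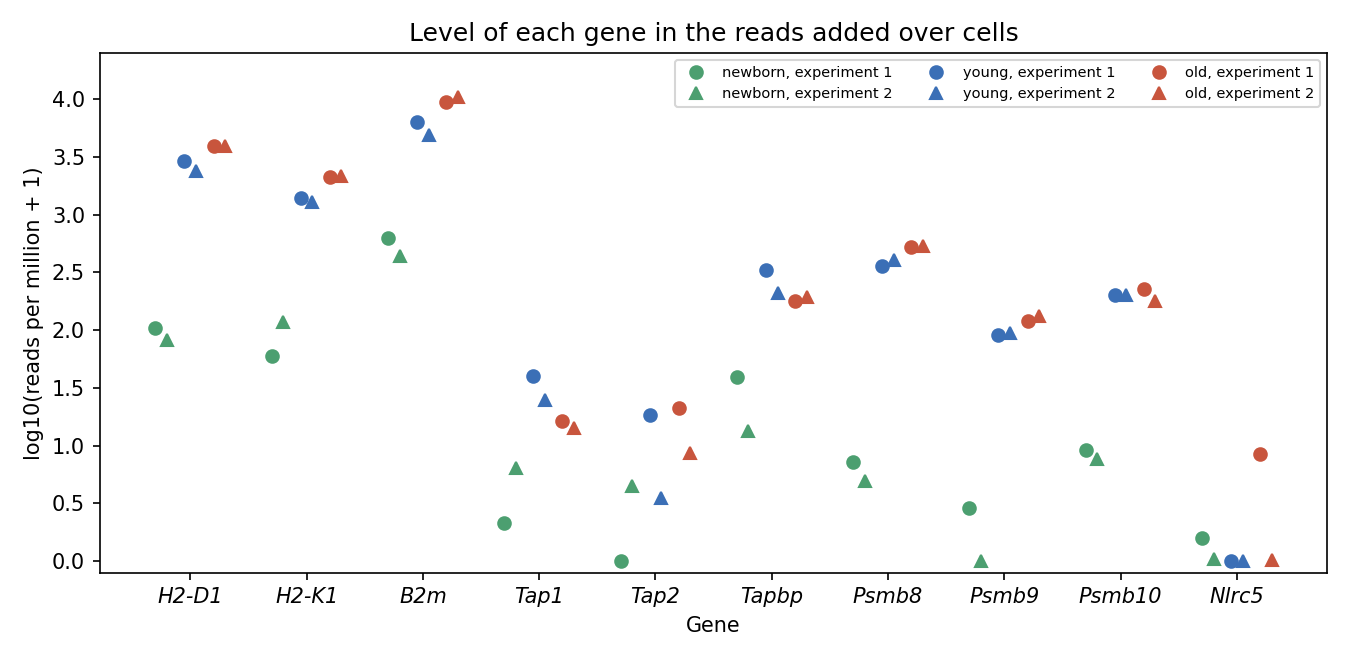
Level of each of the 10 genes on a log scale, as log10 of CPM plus 1, in the 6 sums; colour gives age and marker shape gives experiment. Newborn points lie below all young and old points for H2-D1, H2-K1, B2m, Tap1, Tapbp, Psmb8, Psmb9 and Psmb10, while Nlrc5 is near 0 in 5 of 6 sums.

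In edgeR's quasi-likelihood test on the 6 sums, with Benjamini-Hochberg adjustment over 16684 genes and a threshold of 0.05, young over newborn H2-D1 changed by 4.84 ± 0.24 on the log2 scale (28.6-fold, adjusted p = 0.00916). H2-K1 changed by 3.94 ± 0.39 (15.3-fold, adjusted p = 0.0338 in the same edgeR test), and B2m by 3.41 ± 0.27 (10.6-fold, adjusted p = 0.0198 in edgeR). Both young sums lay above both newborn sums for 8 of 10 members, all except Tap2 and Nlrc5, beside 22.1% of all genes. Across the whole group 5 of 10 members passed as higher, the 3 surface chains with Psmb8 and Psmb10, beside 0.719% of all genes tested (120 higher and 10 lower). The labels name the experiment of each well and the plates of an experiment held all ages, so a fit with experiment as a block was also made. In it H2-D1 and Psmb10 stayed past the threshold (edgeR adjusted p = 0.0380 each) and H2-K1, B2m and Psmb8 did not (adjusted p = 0.0847, 0.0505 and 0.0505 in edgeR), beside 0.144% of all genes called higher. DESeq2 and limma each called 8 members higher, beside 8.39% and 1.97% of all genes, adding Tap1, Tapbp and Psmb9. Leaving out either young sum or either old sum left 0 members and 0 genes past the threshold in edgeR, with 1924 to 2348 genes at an unadjusted p under 0.05. Without the newborn sum of experiment 1, H2-D1, H2-K1, Psmb8 and Psmb9 passed, beside 0.192% of all genes, and B2m and Psmb10 did not. Without that of experiment 2, H2-D1, H2-K1 and Psmb8 passed, beside 0.204% of all genes.

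Old over newborn, the same 5 genes passed in edgeR, beside 0.797% of all genes. This comparison shares its newborn sums with the one before. H2-D1 changed by 5.41 ± 0.25 (42.4-fold, adjusted p = 0.00717), H2-K1 by 4.62 ± 0.40 (24.6-fold, adjusted p = 0.0223) and B2m by 4.22 ± 0.28 (18.7-fold, adjusted p = 0.0108), all by edgeR. With experiment as a block 4 members passed, beside 0.276% of all genes, and H2-K1 did not (edgeR adjusted p = 0.0661). Without either old sum 0 members passed in edgeR, at 2368 and 2278 genes with an unadjusted p under 0.05, and without either young sum 2 members passed, H2-D1 and Psmb8, beside 0.15% of all genes.

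Old over young, no member and none of the 16684 genes passed in edgeR (0% called, 810 genes at an unadjusted p under 0.05). B2m was 0.81 ± 0.25 higher on the log2 scale (1.76-fold, unadjusted p = 0.0210, adjusted p = 0.906 in edgeR), H2-D1 0.57 ± 0.21 higher (1.48-fold, unadjusted p = 0.0401, adjusted p = 0.910 in edgeR) and H2-K1 0.68 ± 0.35 higher (1.60-fold, adjusted p = 0.910 in edgeR). Both old sums lay above both young sums for 6 of 10 members, H2-D1, H2-K1, B2m, Psmb8, Psmb9 and Nlrc5, the last on 2 reads in 1 old sum, beside 15% of all genes tested. By DESeq2, which called 2.48% of all genes higher, B2m passed (adjusted p = 0.0464), and so did Nlrc5 (adjusted p = 0.0252), whose young sums had 0 reads.

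Each of the 9 plates held newborn, young and old cells, which allows the order to be read plate by plate, although plates of 1 experiment may hold cells of the same mice. H2-D1 ran over plates with a lowest, median and highest level of 27.4, 98.6 and 189 CPM (newborn), 1894, 2223 and 3163 CPM (young) and 3040, 3467 and 4129 CPM (old). B2m ran at 446, 706.3 and 841 CPM (newborn), 3763.5, 4868 and 7254 CPM (young) and 8022, 8878 and 10192 CPM (old). For B2m the lowest old plate lay above the highest young plate, as for 8 of the 16684 genes tested (0.048%), whereas H2-D1 overlapped between those ages by its lowest old and highest young plate. H2-K1 ran at 14.4, 84.6 and 221 CPM (newborn), 789.9, 1239 and 1511 CPM (young) and 1443, 2043 and 2362 CPM (old). Young cells were above newborn cells on 9 of 9 plates for H2-D1, H2-K1, B2m, Tapbp, Psmb8, Psmb9 and Psmb10, beside 2.78% of all genes. Old cells were above young cells on 9 of 9 plates for H2-D1, H2-K1, B2m and Psmb8, beside 0.545% of all genes. The remaining members had no such order between the adult ages: old was above young on 6 plates for Psmb9, 4 for Psmb10, 3 for Tapbp and 2 for Tap1.

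**Figure D2:**
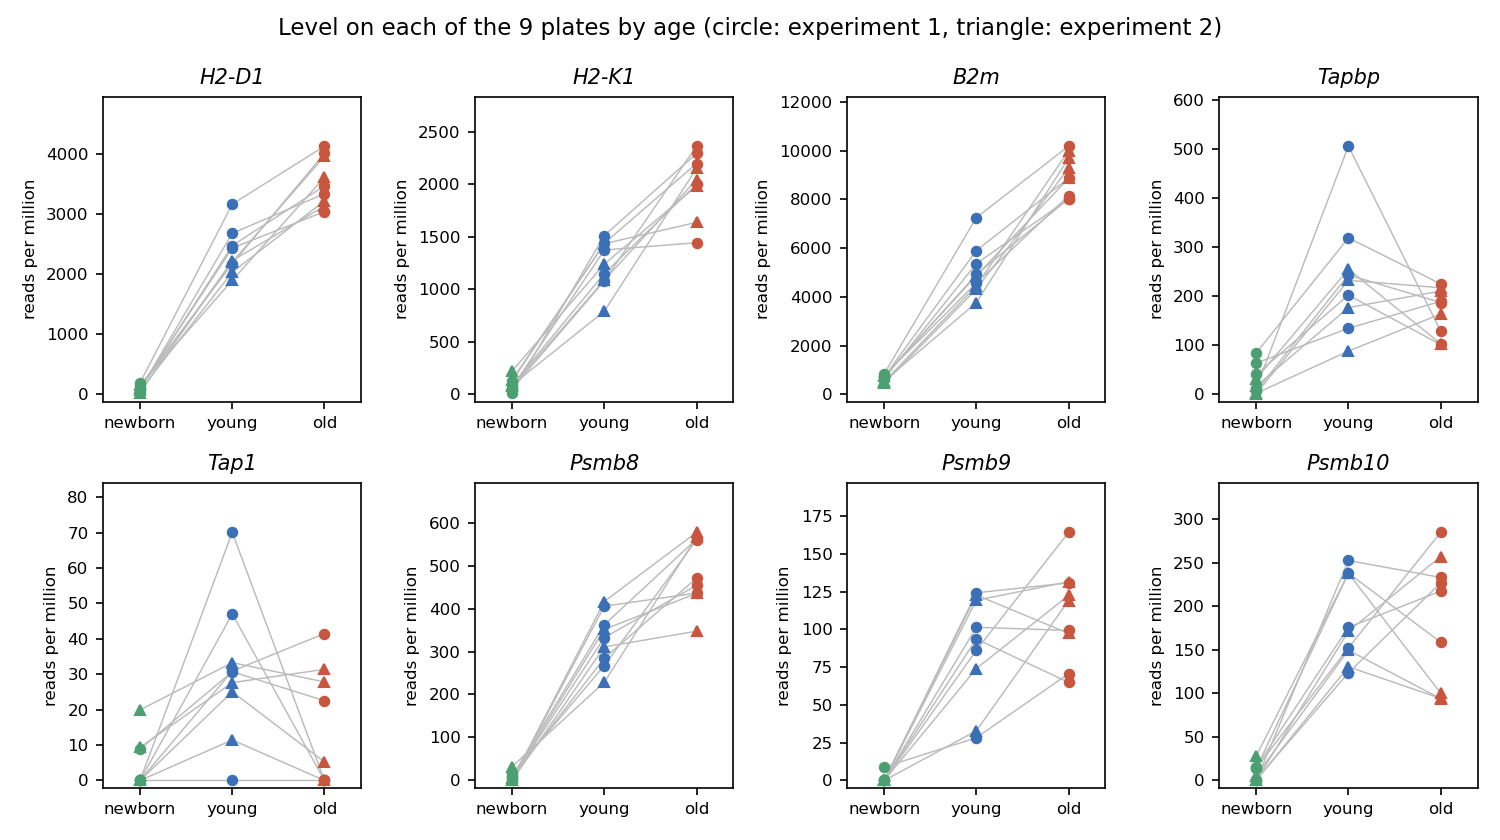
CPM of 8 genes on each of the 9 plates, in newborn, young and old cells (20 to 32 cells per age and plate). Plate CPM were scaled to total reads without the trimmed mean factors, and grey lines join the ages of 1 plate. Lines for H2-D1, H2-K1, B2m and Psmb8 climb at both steps on all 9 plates, and those for Tapbp, Tap1 and Psmb10 do not climb together after 2 months.

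The peptide-loading genes stood far lower than the chains they load, and in old sums they were not higher than in young ones, apart from Tap2. Tapbp, which bridges heavy chain and transporter, had 38.3 and 12.4 CPM (newborn), 333 and 208 CPM (young) and 179 and 192 CPM (old). Tap1, the first transporter chain, had 1.12 and 5.42 CPM (newborn), 38.8 and 23.8 CPM (young) and 15.3 and 13.1 CPM (old). Newborn sums were lowest for both genes, and both old sums were below both young sums. Young over newborn, Tapbp was 3.42 ± 0.64 higher on the log2 scale (10.7-fold) and Tap1 3.26 ± 0.99 higher (9.57-fold), neither past the threshold in edgeR (adjusted p = 0.133 and 0.261). Without the newborn sum of experiment 1 or of experiment 2, these changes were 4.45 or 2.82 for Tapbp and 2.53 or 4.80 for Tap1. Old over young, Tapbp was at -0.55 ± 0.58 and Tap1 at -1.14 ± 0.92 on the log2 scale (edgeR adjusted p = 1 each). These were the 2 members lower in old sums in both experiments, beside 23.5% of all genes. Tap2, the second transporter chain, had 0 and 3.43 CPM (newborn), 17.3 and 2.52 CPM (young) and 20.3 and 7.60 CPM (old). Its ages overlapped, and it passed no comparison (edgeR adjusted p = 0.823, 0.733 and 1 for young over newborn, old over newborn and old over young). Per kilobase of exon, Tapbp averaged 6.98 ± 5.04 CPM (newborn), 74.6 ± 24.3 (young) and 51.1 ± 2.57 (old), against 5.72 ± 1.93 for Tap1 and 2.62 ± 2.76 for Tap2 in young sums (SD, n = 2).

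All 3 inducible proteasome subunits were near the limit of detection in newborn skin and plainly read in young and old skin. Psmb8 had 6.27 and 3.94 CPM (newborn), 359 and 405 CPM (young) and 528 and 532 CPM (old). Psmb10 had 8.08 and 6.59 CPM (newborn), 202 and 200.1 CPM (young) and 225 and 178 CPM (old). Psmb9 had 1.88 and 0 CPM (newborn), 90.1 and 92.9 CPM (young) and 119 and 131 CPM (old). Newborn sums were far below the others for all 3 genes, and old sums exceeded young ones for Psmb8 and Psmb9 and straddled them for Psmb10. Young over newborn, Psmb8 changed by 6.23 ± 0.35 on the log2 scale (74.9-fold, edgeR adjusted p = 0.00961) and Psmb10 by 4.78 ± 0.29 (27.4-fold, edgeR adjusted p = 0.00990). Psmb9 was 6.60 ± 2.25 higher (97.4-fold) and did not pass (edgeR adjusted p = 0.306); it was at 5.61 without the newborn sum of experiment 2 (edgeR adjusted p = 0.0519), and without that of experiment 1, when no newborn read was left, it passed (edgeR adjusted p = 0.0359). Its newborn level rested on a single cell of 158 with a read at equal depth in experiment 1, and on none of 91 in experiment 2. Old over newborn, Psmb8 changed by 6.70 ± 0.36 (104-fold, edgeR adjusted p = 0.00784) and Psmb10 by 4.78 ± 0.29 (27.5-fold, edgeR adjusted p = 0.00867). Old over young, Psmb8 was at 0.47 ± 0.28, Psmb9 at 0.45 ± 1.76 and Psmb10 at 0.01 ± 0.25 (edgeR adjusted p = 0.910, 1 and 1).

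The constitutive partners did not follow this pattern. Psmb5 had 126 and 175 CPM (newborn), 62.9 and 85.3 CPM (young) and 73.5 and 73.7 CPM (old), Psmb7 had 155 and 101 CPM, 104 and 67.3 CPM, and 67.8 and 109 CPM, and Psmb6 had 443 and 218 CPM, 496 and 246 CPM, and 402 and 336 CPM at the same ages. None of these 3 genes passed any comparison in edgeR. On plate CPM, which lack the trimmed mean factors, young was above newborn on 1 of 9 plates for Psmb5 and 0 of 9 for Psmb6 and Psmb7. Over all genes, 6.46% were lower in young on all 9 plates. In the scaled sums Psmb6 was instead higher in young than in newborn in both experiments. Each inducible subunit competes with 1 constitutive subunit for a place in the particle, so the share of the inducible transcript within each pair was computed from reads per kilobase of exon. Lengths were those of all annotated exons joined, such as 3381 bases for Psmb8 and 899 for Psmb5, and the shares depend on them. For Psmb8 against Psmb5 it was 1.30% and 0.593% (newborn), 60.3% and 55.8% (young) and 65.6% and 65.8% (old). For Psmb10 against Psmb7 it was 9.49% and 11.6% (newborn), 79.6% and 85.7% (young) and 86.9% and 76.6% (old). For Psmb9 against Psmb6 it was 0.217% and 0% (newborn), 8.51% and 16.2% (young) and 13.1% and 16.7% (old). In adult skin the inducible transcript was thus the larger one in the Psmb8 and Psmb10 pairs and the smaller one in the Psmb9 pair, in all 4 adult sums. Over the 3 pairs the inducible transcript made up, per kilobase, 1.66% and 1.45% (newborn), 40.6% and 51.6% (young) and 50.3% and 50.4% (old), so newborn lay apart and the adult ages overlapped.

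**Figure D3:**
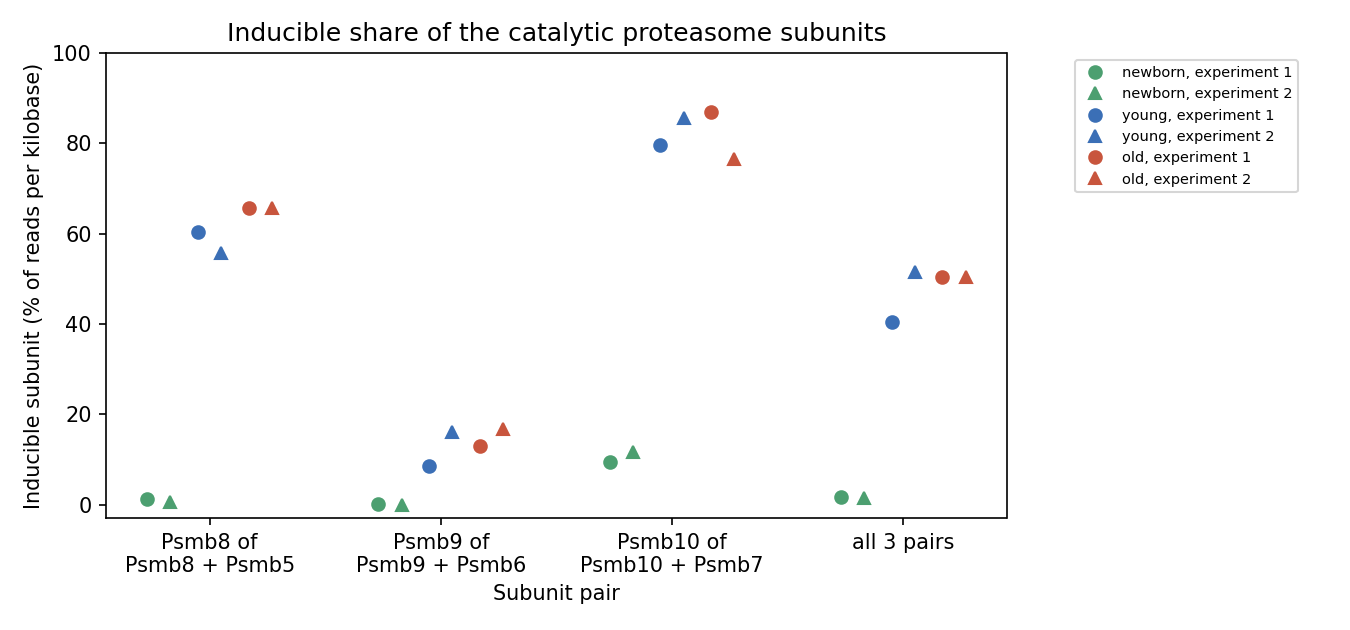
Share of the inducible subunit in each pair of catalytic proteasome subunits, in percent of reads per kilobase of exon, for the 6 sums; colour gives age and marker shape gives experiment. All newborn points lie under 12% and the adult points of the Psmb8 and Psmb10 pairs lie above 55%, with the Psmb9 pair at 8.51% to 16.7%.

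Nlrc5 was at or near 0 throughout. It had 0.581 and 0.0421 CPM (newborn), 0 and 0 CPM (young) and 7.49 and 0.0111 CPM (old). One old sum carried nearly all of its reads, and at equal depth 1.59% of that sum's cells had a read. A count of 0 of 142 and 0 of 104 young cells allows a share of up to 2.11% and 2.88% by the limit of 3 counts, and of 2.56% and 3.48% by the exact binomial interval. No comparison of Nlrc5 passed in edgeR (adjusted p = 0.508, 0.735 and 0.910 for young over newborn, old over newborn and old over young), and with 0 young reads its fitted changes are no measure of size.

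Shares of cells with a read were taken after each cell was thinned at random to 100000 reads, a depth all kept cells reached, with exact binomial (Clopper-Pearson) 95% intervals. There are no molecular identifiers, so reads of 1 gene in 1 cell may copy 1 cDNA molecule, and intervals cover counting error only. A read of H2-D1 was found in 19.0% (13.2 to 26.0) and 15.4% (8.67 to 24.5) of newborn cells, 95.1% (90.1 to 98.0) and 98.1% (93.2 to 99.8) of young cells and 96.8% (92.1 to 99.1) and 96.5% (91.3 to 99.0) of old cells. For H2-K1 the shares were 15.2% and 24.2% (newborn), 78.2% and 87.5% (young) and 88.9% and 94.7% (old). For B2m they were 87.3% and 92.3% (newborn), 99.3% and 100% (young) and 99.2% and 99.1% (old). Nearly all adult cells thus carried both the light chain and H2-D1, whereas most newborn cells carried the light chain without a read of H2-D1. Among cells with a read, H2-D1 averaged 62.5 and 64.2 reads per 100000 (newborn), 282 and 217 (young) and 372 and 366 (old). Between young and old cells the share with an H2-D1 read overlapped, and the reads per positive cell were higher in both old groups. B2m went the same way, with 83.7 and 62.6 reads per positive newborn cell, 577 and 440 per positive young cell and 891 and 967 per positive old cell.

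The subunits of the proteasome were read in fewer cells. Psmb8 was found in 5.70% and 2.20% (newborn), 57.0% and 69.2% (young) and 60.3% and 61.4% (old), and Psmb10 in 6.33% and 5.49%, 45.1% and 62.5%, and 51.6% and 36.0%. Psmb9 was found in 0.633% and 0% (newborn), 21.8% and 34.6% (young) and 27.0% and 36.0% (old), where 0 of 91 allows a share of up to 3.30% by the limit of 3 counts and 3.97% by the exact interval. Young and old shares overlapped for all 3 subunits. Tapbp was found in 12.03% and 8.79% (newborn), 47.9% and 53.8% (young) and 30.2% and 46.5% (old), so its old groups were both lower than its young groups. Tap1 stayed under 10% at each age (0.633% and 2.20%, 7.04% and 9.62%, 2.38% and 4.39%), and Tap2 under 6% (0% and 3.30%, 4.93% and 1.92%, 5.56% and 3.51%). Without thinning, H2-D1 was read in 21.5% and 25.3% (newborn), 95.8% and 98.1% (young) and 97.6% and 96.5% (old). When all wells of at least 100000 reads entered, its shares fell to 90.8% and 80.0% in old, against 91.3% and 86.7% in young wells.

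**Figure D4:**
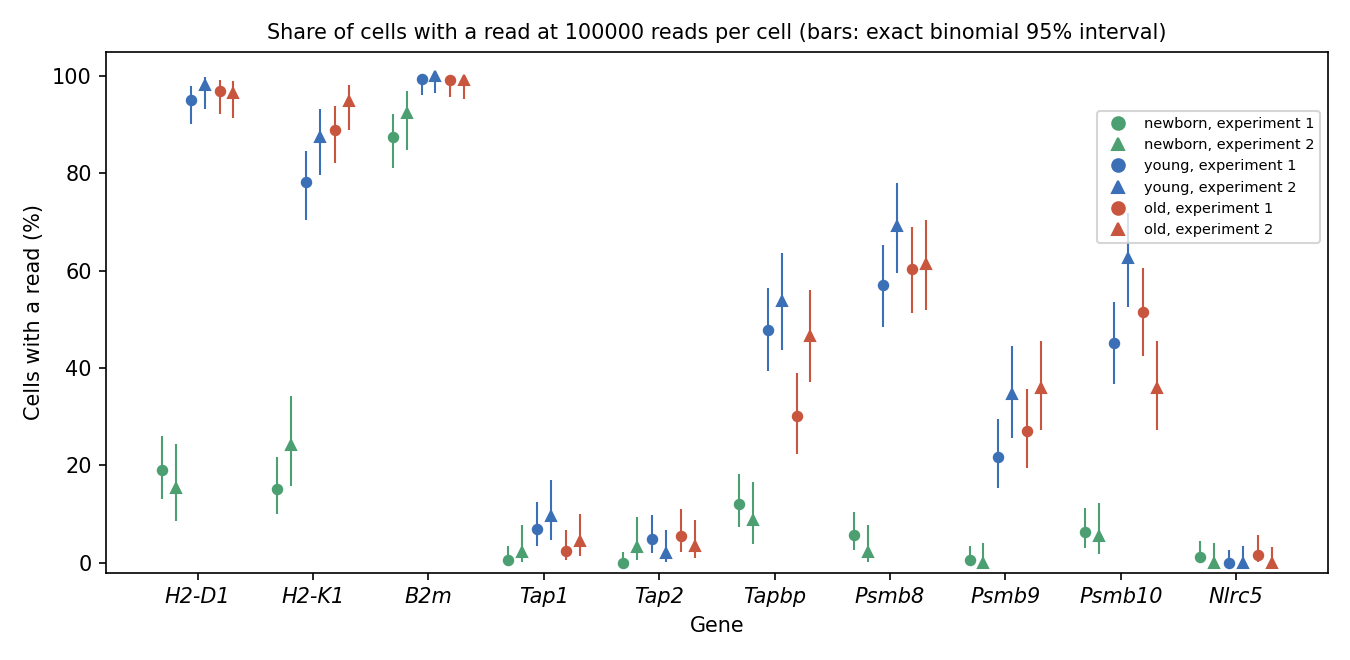
Share of cells with at least 1 read of each gene at 100000 reads per cell, in percent, for each age and experiment; bars are exact binomial 95% intervals. H2-D1 separates newborn cells (15.4% and 19.0%) from adult cells (95.1% to 98.1%), while B2m is read in 87.3% to 100% of cells at every age.

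A typical newborn cell had reads of 1 of the 10 members, and a typical young or old cell of 5 (medians of both experiments). The summed reads of all members had a median of 74 and 61 per 100000 (newborn), 851.5 and 726 (young) and 1446.5 and 1492 (old). The highest newborn cells had 602 and 416 reads, and the lowest cells had 0 and 163 (young) and 245 and 113 (old), so the ranges overlapped. A level of 394 reads was exceeded by 4 of 158 and 1 of 91 newborn cells and by 94.4% and 96.5% of old cells. It is the 10th percentile of the young cells of both experiments together. The shares of young cells above it, 92.3% and 86.5%, were therefore largely fixed in advance. Genes detected per cell at this depth had medians of 1791 and 2213 (newborn), 1647.5 and 2044 (young) and 1501.5 and 1711 (old), and mitochondrial reads of 3.26% and 3.78%, 2.36% and 2.39%, and 2.86% and 3.08%. Summed member reads had Spearman correlations with genes per cell between -0.19 and 0.17 in the 6 groups, and with mitochondrial reads between -0.0681 and 0.289, highest in young cells of experiment 1; their part in the members' levels was not tested.

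In young and old cells the surface chains had the highest correlations of the group from cell to cell, and in newborn cells H2-D1 and B2m alone were positive in both experiments among the 3 pairs of these chains. Spearman's rho was taken across cells within each age and experiment at equal depth, over cells that share plates and experiments; it describes these cells and carries no p-value. H2-D1 and B2m had a rho of 0.467 and 0.608 across the 142 and 104 young cells and 0.528 and 0.540 across the 126 and 114 old cells, against 0.249 and 0.189 across the 158 and 91 newborn cells. H2-K1 and B2m had 0.406 and 0.472 across young and 0.424 and 0.433 across old cells, and H2-D1 and H2-K1 had 0.339 and 0.456 (young) and 0.286 and 0.428 (old). In newborn cells H2-K1 and B2m stood at 0.0836 and -0.180 and the last pair at 0.00576 and -0.0473, where few cells had a read of either heavy chain. All 3 pairs were positive in the 4 adult groups.

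Correlations with and among the proteasome genes averaged lower over the 4 adult groups, although in old cells of experiment 1 H2-K1 with Psmb8 (0.288) stood as high as the pair of heavy chains. B2m with Psmb8 averaged 0.251 over the 4 adult groups (0.207 to 0.283) and B2m with Psmb9 averaged 0.201 (0.124 to 0.298). The inducible subunits averaged 0.0813 (Psmb8 with Psmb9), 0.0975 (Psmb8 with Psmb10) and 0.0671 (Psmb9 with Psmb10), and the first of these had both signs among the groups (-0.100 to 0.183). Of 21 pairs that could be given in all 4 adult groups, 9 were positive in each, and the median of the averages was 0.0975. Weak values in sparse reads are no finding. Joint detection showed the same: Psmb8 and Psmb9 were both read in 14.8% and 22.1% of cells (young) and 18.3% and 23.7% (old), where the product of their shares was 12.5% and 23.96%, and 16.3% and 22.1%.

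**Figure D5:**
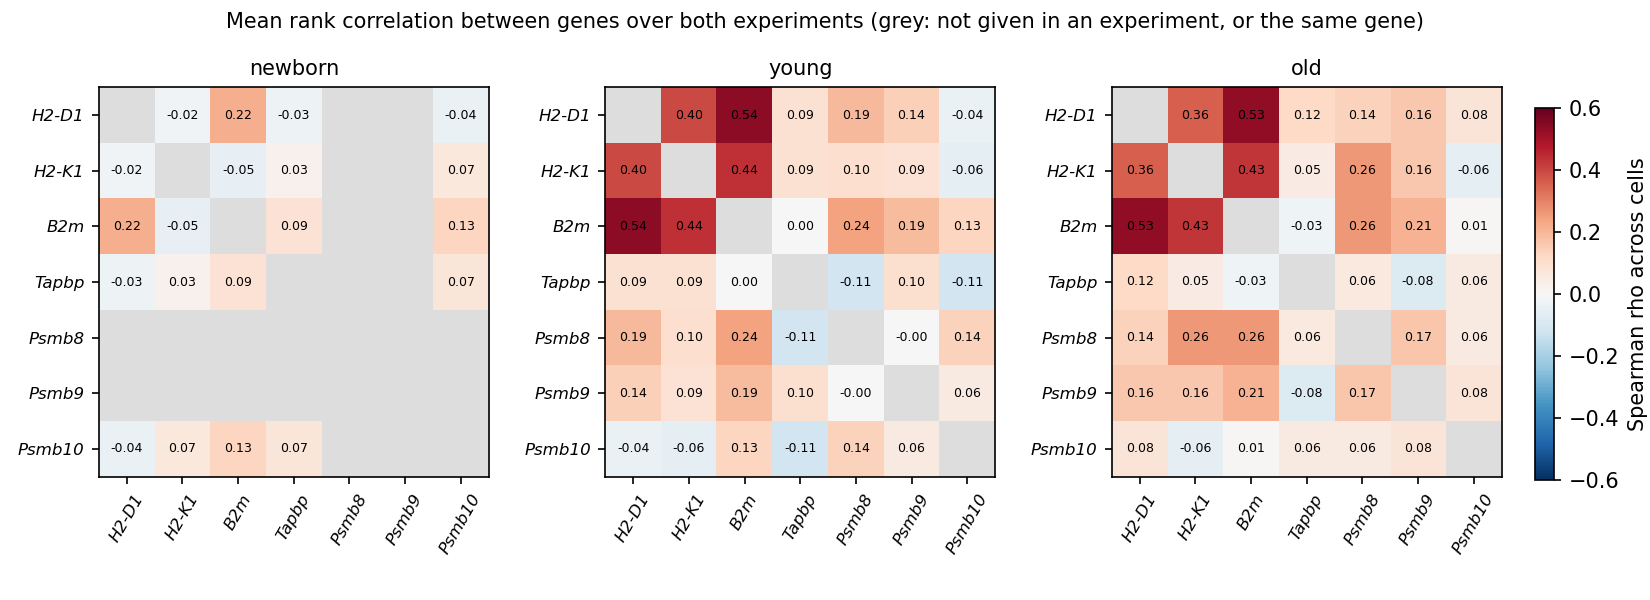
Spearman's rho between 7 of the genes across cells at 100000 reads per cell, as the mean of both experiments, for newborn, young and old cells; red is positive and blue negative, and grey marks pairs with too few cells with a read. The block of H2-D1, H2-K1 and B2m stands out in young and old cells, and the proteasome genes and Tapbp show no such block.

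Outside the group, 1850 genes with a read in at least 20% of cells in all 4 adult groups were ranked by rho with the summed member reads, averaged over those groups. B2m made up 54.4% and 51.6% (young) and 56.9% and 59.3% (old) of the members' CPM, so the ranking is weighted toward B2m. The highest were Ccl19 (0.359), Igfbp5 (0.324), S100a4 (0.258), Ccl11 (0.254), AW112010 (0.248), Gm42674 (0.244), Fth1 (0.244), Ccl8 (0.232), C3 (0.200) and Aldh3a1 (0.198). Ccl19, Ccl11 and Ccl8 are chemokines that draw T cells and dendritic cells, eosinophils and monocytes, C3 is the central complement protein, Igfbp5 binds insulin-like growth factors and Fth1 is the ferritin heavy chain. The lowest were Gpx3 (-0.282), a secreted glutathione peroxidase, Ogn (-0.271) and Cilp (-0.196), both matrix proteins, Gm26825 (-0.182) and Hspa8 (-0.179), a chaperone. The rho of Ccl19 lay between 0.249 and 0.436 in the 4 groups and that of Gpx3 between -0.387 and -0.145. The median over the 1850 genes was -0.00547, and 95% of them lay between -0.112 and 0.130.

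Other genes that share the pathway were taken from lists of known members. Among other class I and class I-like heavy chains, 3 of 15 tested passed as higher in young over newborn sums in edgeR and none as lower, beside 0.719% of all genes called higher. Their median change was 2.75 (2.42 with the 2 genes unread in 1 age at their bound), against -0.07 for all genes. H2-T23, the Qa-1 chain, had 10.5 and 10.3 CPM (newborn), 333 and 437 CPM (young) and 394 and 272 CPM (old) (5.22 ± 0.33, edgeR adjusted p = 0.0105, young over newborn). Hfe, a class I-like regulator of iron uptake, had 10.6 and 9.38 CPM (newborn), 132 and 188 CPM (young) and 110.4 and 151 CPM (old) (4.00 ± 0.35, edgeR adjusted p = 0.0243). Both gene products pair with B2m. For these 2 genes every adult sum lay above every newborn sum, beside 22.1% of all genes for young sums and 21.6% for old sums. Fcgrt, the heavy chain of the neonatal Fc receptor, changed by 1.78 ± 0.22 (edgeR adjusted p = 0.0483), and H2-T22 passed in old over newborn sums (2.80 ± 0.34, edgeR adjusted p = 0.0424). None of the 15 passed in old over young sums.

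Among the other steps before and around peptide loading, no gene passed in edgeR in any comparison over 16 genes of class I folding and peptide trimming, 16 other subunits and assembly factors of the 20S core and 22 proteasome activator and cap genes. Their median changes in young over newborn sums were -0.12, 0.01 and 0.05, close to the -0.07 of all genes. Hspa5, the main chaperone of the endoplasmic reticulum, had 1411 and 1479 CPM (newborn), 2269 and 1890.3 CPM (young) and 3369 and 1492 CPM (old), and Pdia3, part of the loading complex, had 1305 and 887 CPM, 1621 and 968 CPM, and 1916 and 1111 CPM. Psma3, a core subunit, had 348 and 315 CPM (newborn), 342 and 240.0 CPM (young) and 319.7 and 307 CPM (old). Psme2, a subunit of the interferon-inducible PA28 activator, had 119 and 79.3 CPM (newborn), 267 and 202 CPM (young) and 364 and 274 CPM (old); its 1.24 ± 0.32 change in young over newborn did not pass (edgeR adjusted p = 0.234). Psme1, its partner in that activator, had 74.9 and 78.0 CPM (newborn), 222 and 193 CPM (young) and 229 and 261 CPM (old), and the peptide-trimming enzyme Erap1 had 5.83 and 11.1 CPM, 43.9 and 71.0 CPM, and 69.1 and 98.7 CPM; both were chosen after their values were seen. They were 1.44 ± 0.22 and 2.76 ± 0.53 higher on the log2 scale in young over newborn and did not pass (edgeR adjusted p = 0.0848 and 0.138). For Psme1, Psme2 and Erap1 every adult sum lay above both newborn sums. Over all genes, 22.1% had both young sums above both newborn sums, and 21.6% had both old sums above them. Psmb2 and Psmc3, among the 2 genes with the highest mean CPM in their lists, did not pass in any comparison (smallest edgeR adjusted p = 0.841 and 0.933).

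The lists of regulators and of receptors had smaller median changes in young over newborn sums than the members (median 3.68). Of 21 transcriptional regulators and 12 interferon and tumour necrosis factor receptors and kinases, 0 passed in edgeR in any comparison, with medians of 0.99 and 1.00 in young over newborn sums. Irf1, an activator of class I and immunoproteasome genes, had 117 and 197 CPM (newborn), 359 and 869 CPM (young) and 482 and 718 CPM (old) (1.97 ± 0.54, edgeR adjusted p = 0.249, young over newborn). Ifngr1, the ligand-binding chain of the interferon gamma receptor, had 62.8 and 107 CPM (newborn), 439.8 and 550 CPM (young) and 442 and 434 CPM (old) (2.55 ± 0.33, edgeR adjusted p = 0.0598, young over newborn). For both genes each adult sum lay above each newborn sum, beside 22.1% of all genes for young sums and 21.6% for old sums. Stat3 and Jak1, among the 2 genes with the highest mean CPM in their lists, did not pass in any comparison (smallest edgeR adjusted p = 0.932 and 0.224). Of 32 interferon-induced genes 4 passed as higher in young over newborn sums and none as lower (Ifitm3, Gbp2, Ly6e and Sp100), beside 0.719% of all genes called higher, with a median of 3.59. In old over newborn sums 5 passed, these 4 and Iigp1, beside 0.797% of all genes called higher. In old over young sums none passed, with a median of -0.27. Gbp2, an interferon-induced GTPase, had 3.35 and 3.29 CPM (newborn), 140.4 and 176 CPM (young) and 237 and 183 CPM (old) (5.58 ± 0.32, edgeR adjusted p = 0.00924, young over newborn). Ifitm3, a membrane protein that hinders virus entry, had 415 and 391 CPM (newborn), 2392 and 2424 CPM (young) and 2262 and 2346 CPM (old). Sp100, a nuclear body protein, had 0 reads in both newborn sums and 92.0 and 93.8 CPM in young sums. MHC class II genes had 0 of 7 past the threshold, with medians of 3.40 in young over newborn and 3.84 in old over newborn sums, and H2-Ab1, a class II chain of professional antigen-presenting cells, had 0.949 and 3.06 CPM (newborn), 18.2 and 15.8 CPM (young) and 28.7 and 28.6 CPM (old).

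In adult sums, the lists of other cell types were small beside the group's total of 11723 and 9508 CPM (young) and 16481 and 17649 CPM (old). Newborn totals of the group were only 841 and 669 CPM, and single members such as Psmb9 stood below some of these lists. The 13 immune markers summed to 1.49 and 0 CPM (newborn), 166 and 37.7 CPM (young) and 17.2 and 12.7 CPM (old), and 3.16% and 0% (newborn), 18.3% and 16.3% (young) and 6.35% and 5.26% (old) had a read of at least 1 of them. With all these cells left out, 5, 5 and 0 members passed in edgeR for young over newborn, old over newborn and old over young, as with all cells. Beside them, 101, 130 and 0 of 16448 genes tested were called higher. H2-D1 changed by 4.84 ± 0.23 in young over newborn. The endothelial list summed to 26.5 and 15.1 CPM (newborn), 90.7 and 75.7 CPM (young) and 83.6 and 70.3 CPM (old), with Cdh5 and Emcn at 0. The epithelial list had 44.1 and 19.0, 43.6 and 47.3, and 72.4 and 57.1 CPM, the mural and muscle list 14.7 and 104, 93.6 and 133, and 92.3 and 66.9 CPM with Rgs5 at 0, and the Schwann and melanocyte list 4.52 and 7.41, 5.86 and 9.37, and 5.42 and 1.07 CPM with Sox10 at 0. The fibroblast list summed to 81129 and 68161 CPM (newborn), 188684 and 186895 CPM (young) and 140284 and 149612 CPM (old), and its part in the members' levels was not tested.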

How the data were processed

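Smart-seq2 read counts per gene and well, deposited by the authors as 11 plate tables, were used as raw counts; per the submitters' processing notes the build was GRCm38 and FastQC was run, and no aligner, counter or strand setting is named in the sources used here. The members and gene lists were chosen with earlier results of these data known. Of 1049 labelled columns 1044 held values; 183 wells present in 2 run tables (profile correlation at least 0.994) were joined, giving 861 wells. Tables were restricted to 51777 shared genes, of which 51633 matched GENCODE M21 for symbols and exon lengths; spike-ins were left out. Cells needed 50000 reads, 1000 genes and at most 25% mitochondrial reads, which kept 735; no doublets were called. In nonzero values 73.8% to 76.6% were even numbers per table, so reads of a pair may have been counted singly, which would double counts.

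Adding the reads of all cells of 1 age in 1 experiment gave 6 sums of 119516880 to 195199919 reads. All 6 entered edgeR 4.0.16 (TMM, low-count filter, quasi-likelihood, age only; 3 residual degrees of freedom, common biological coefficient of variation 1.13), with Benjamini-Hochberg adjustment. Standard errors are the log2 fold change divided by the square root of F. The labels mark the number as the experiment, with its own plates, so a fit with experiment as a block was also run; deviations of same-numbered sums correlated at 0.0125, -1.7e-04 and 0.0107. Shares and correlations used cells thinned to 100000 reads. Alternatives were RLE factors, DESeq2 1.42.0, limma 3.58.1 on mean log2(CPM + 1), no low-count filter, thinned cells, all wells, no cells with immune reads, and each sum left out. The code was tested on simulated counts. Named are all members and their constitutive partners, up to 5 genes per list past the threshold (or the 2 highest), and the 10 most and 5 least correlated genes. Psme1 and Erap1 were added after their values were seen.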

Additional observations from a re-analysis of the deposited data

How the results depend on the processing

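Having 2 sums per age limits every test: old over young, 0 members passed in edgeR under each alternative of scaling, filter and cells, and 0 genes passed as higher. In DESeq2 2 members passed (B2m and Nlrc5), beside 2.48% of all genes called higher. Young over newborn, 5 members passed, beside 0.719% of all genes called higher. DESeq2 and limma each gave 8, beside 8.39% and 1.97% of all genes. The experiment block gave 2, beside 0.144% of all genes, and that block pairs the sums by experiment. Leaving out 1 sum gave 0 to 4 members for young over newborn, 0 to 4 for old over newborn and 0 for old over young; a sum of the third age also entered the shared spread. Counted on reads in place of reads per kilobase, the inducible proteasome share averaged 2.14% (newborn), 56.6% (young) and 61.7% (old).

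The direction turned only in comparisons that a member did not pass in edgeR. Psmb10 in old over young sums was at -0.00292 with RLE factors, -0.00293 by DESeq2, -0.00604 with the experiment block, -0.0123 with thinned cells, -0.63 by limma, -0.0519 without cells with immune reads and between -0.19 and 0.16 with 1 sum left out, lowest without the old sum of experiment 1. Tap2 in old over young sums was at -0.31 without the young sum of experiment 2 and between -0.40 (without the old sum of experiment 1) and 2.47 over all sums left out in turn, and Nlrc5 in old over newborn sums between -4.71 (without that old sum) and 6.45. The other fitted changes kept their sign.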

Other observations

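The 5 newborn cells with more than 394 summed member reads per 100000 owed these mostly to the light chain. The 4 of experiment 1 had 402 to 602 member reads per 100000, and the 1 of experiment 2 had 416, of which 313 were B2m. In 3 of the cells of experiment 1, with 573, 571 and 402 member reads, 398, 396 and 326 were B2m. H2-D1 reads were present in 3 of these 5 cells and H2-K1 reads in 2. They had 0 reads of the 13 immune markers, and each had at least 685 reads of Dcn, a fibroblast proteoglycan. Cd34, a marker of the sort, had 0 reads in 2 of these 5 cells and 19, 77 and 160 in the others. Psmb8 had 1 read in 1 of them and 0 in the others.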
